A study of Homo sapiens with 2 samples.

Results

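Mediator is the multiprotein complex that relays signals from DNA-bound transcription factors to RNA polymerase II. Its transcripts were examined as 33 genes of the 27685 listed, chosen by name: symbols made of MED and a number, with or without a final L, together with CDK8, CDK19 and CCNC, leaving out pseudogenes and antisense loci. The complex is built from a Head and a Middle module that contact the polymerase, a Tail module that receives most activators, and the backbone subunit MED14, which joins them. A dissociable kinase module (CDK8 or CDK19, cyclin C, MED12 and MED13) binds the Middle and blocks polymerase contact while attached. MED27 to MED30 sit between Head and Tail and have been assigned to either, so they are given here as a connector group.

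Both samples were NCI-H838, an established human lung adenocarcinoma line, taken 48 hours after transient lipid transfection. The LINC00472 group received the pCDH plasmid with the full-length long noncoding RNA LINC00472, and the control group received pCDH without an insert. Each group held 1 library, so no value has a replicate check and no p-value is given. Transfection was transient, and the share of cells that took up plasmid is not given in the sources used here. Fewer cells with a transcript and less of it per cell cannot be told apart in these bulk libraries.

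Depth was 21093055 gene counts for LINC00472 and 54823706 for the control. LINC00472 itself had 5655 counts in the LINC00472 library against 2563 in the control, a 4.69-fold higher scaled level (log2 ratio 2.23, interval 2.16 to 2.30). Counts were present for 5 of 6 epithelial markers after LINC00472 transfection, against 6 of 6 in the control, with summed FPKM of 65.6 and 291. The lower sum came from the keratins KRT8, KRT18 and KRT7, while EPCAM had 1.175 against 1.187 FPKM and CDH1 2.098 against 1.339 FPKM. Their part in the results below was not tested. The lung markers NKX2-1 and SFTPB were at 0 in both libraries and NAPSA had 2.40 against 0.742 FPKM. Summed leukocyte markers stood at 17.9 FPKM in the LINC00472 library, against 17.3 in the control, almost all of it CD14 and CD68, while CD3E was at 0 in both. The 2 main markers went in opposite directions, CD14 with 7.77 against 2.75 FPKM and CD68 with 9.98 against 14.2 FPKM. PTPRC had 0 counts with LINC00472 against 32 in the control. The FPKM sums were 1.98 and 2.03 for 5 fibroblast markers, and 0.165 and 0.153 for 3 endothelial markers.

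Ratios below are log2 ratios of scaled counts, LINC00472 over control, with exact 95% intervals that cover counting error only. These intervals treat the deposited whole numbers as directly counted reads, and whether they were counted or estimated from coverage is not given in the sources used here. Scaling used TMM factors, which set the zero point from a trimmed mean of gene ratios. That zero was not the median gene. Over genes at the minimum given below, the median ratio was -0.19 for all genes and -0.31 for protein-coding genes. A gene is called higher or lower when its mean is at least 1 CPM (counts scaled to library size), its ratio is at least 2-fold and its interval excludes equality. FPKM is the authors' level per transcript length, and levels of different genes are compared on that scale.

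All 33 subunits passed the expression minimum. MED23 and MED12L were higher in the LINC00472 library, and MED11, MED16, MED18 and MED9 were lower. That makes 6 of 33 called (18.2%), where 40.2% of all 14012 genes at the minimum were called. By direction, 2 of 33 members (6.06%) were higher against a background of 16.3%, and 4 of 33 (12.1%) were lower against 23.8%. At 1.5-fold, 2 members were higher and 14 lower, against backgrounds of 25.4% and 36.5% (61.9% in either direction). The median ratio of the members was -0.47, and that of all genes at the minimum -0.19. Ratios of the members were packed more closely than those of all genes, with an interquartile range of -0.65 to 0.17 against -0.96 to 0.60. Each partner list described further below was also narrower than all genes, so this was not particular to Mediator. The interquartile widths of those lists ran from 0.12 (cohesin and loader) to 1.23 (pausing and elongation), beside 0.81 for the members and 1.57 for all genes. The Mediator genes together took 0.188% of all counts after LINC00472 transfection (95% exact bounds 0.186 and 0.190), against 0.160% in control cells (0.159 and 0.161). This share is of raw counts, without TMM scaling or regard to transcript length. The summed FPKM of the members went the other way, at 431 with LINC00472 against 459 in the control.

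**Figure D1:**
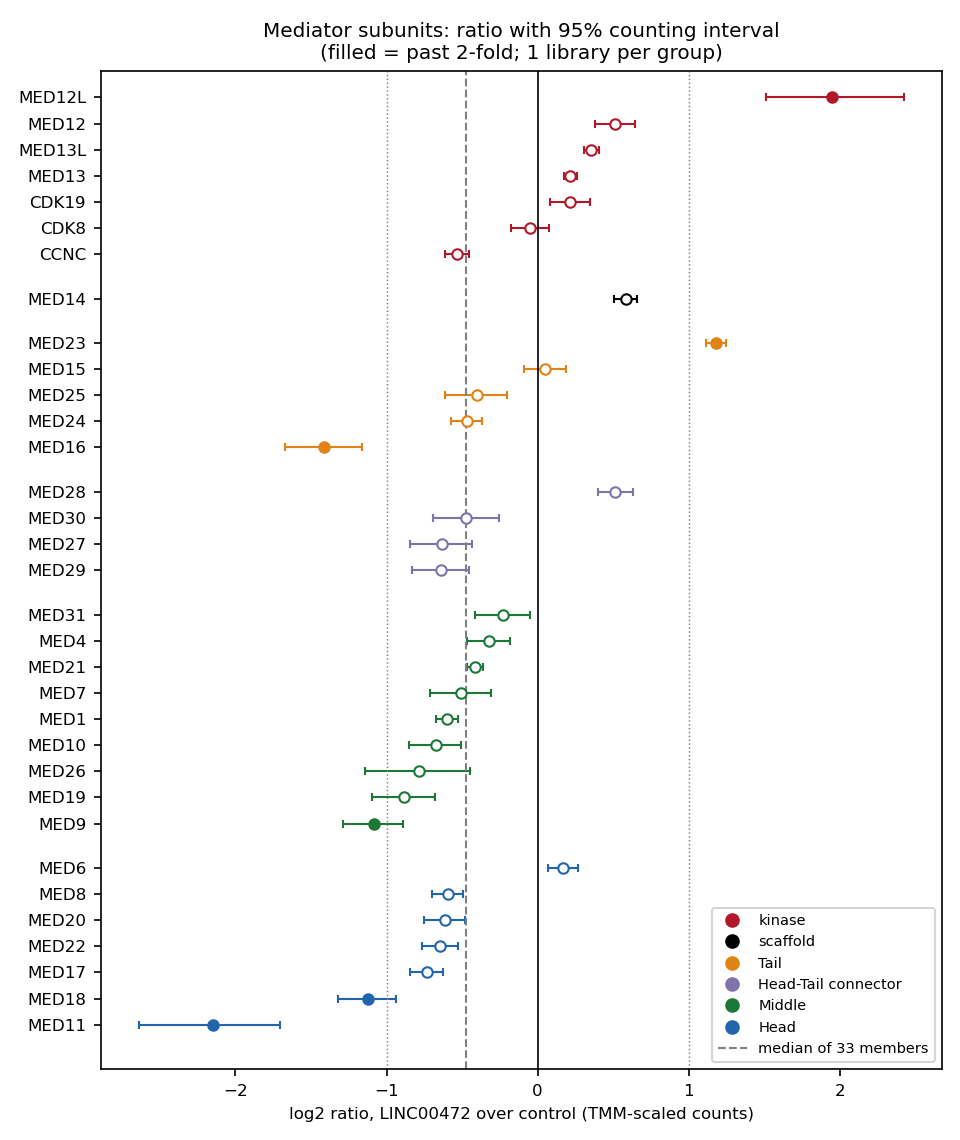
Log2 ratio (x axis, LINC00472 over control, TMM-scaled counts) of each of the 33 subunits, grouped and coloured by module, with bars for the 95% counting interval and filled points for called genes. The kinase subunits other than CCNC and CDK8 lie right of 0 together with MED14, MED23, MED28, MED6 and MED15, and all 9 Middle subunits lie left of it, of which MED31 crosses it under total counts, and MED31 and MED4 cross it under upper quartile scaling. Dotted lines mark 2-fold and the dashed line the members' median of -0.47.

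Promoter sequences show what lies upstream of the most divergent subunits, the higher MED23 and MED12L and the lower MED11 and MED16. They are RefSeq promoters of build GRCh38.p14, from 250 bases before to 50 after the start, 5′ to 3′, with capitals marking matches on either strand to any of 6 motifs.
MED23, chr6:131628264-131628563, minus strand: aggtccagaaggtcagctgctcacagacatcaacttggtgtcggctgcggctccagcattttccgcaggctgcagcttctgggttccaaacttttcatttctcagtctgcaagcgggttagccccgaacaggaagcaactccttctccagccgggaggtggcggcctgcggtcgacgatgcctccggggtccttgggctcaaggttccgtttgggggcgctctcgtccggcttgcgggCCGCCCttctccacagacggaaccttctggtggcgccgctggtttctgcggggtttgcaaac
MED12L, chr3:151085414-151085713, plus strand: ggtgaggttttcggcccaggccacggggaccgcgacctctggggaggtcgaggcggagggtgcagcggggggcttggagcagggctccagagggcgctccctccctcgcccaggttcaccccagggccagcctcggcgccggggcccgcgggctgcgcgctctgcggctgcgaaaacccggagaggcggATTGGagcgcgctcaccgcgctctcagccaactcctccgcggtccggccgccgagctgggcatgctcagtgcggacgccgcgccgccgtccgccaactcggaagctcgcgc
MED11, chr17:4731178-4731477, plus strand: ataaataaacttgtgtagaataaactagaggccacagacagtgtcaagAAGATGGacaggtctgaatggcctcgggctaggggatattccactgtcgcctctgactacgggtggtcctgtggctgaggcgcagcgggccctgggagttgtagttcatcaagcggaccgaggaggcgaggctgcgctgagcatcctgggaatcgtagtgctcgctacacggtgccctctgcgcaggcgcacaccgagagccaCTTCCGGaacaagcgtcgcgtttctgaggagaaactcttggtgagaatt
MED16, chr19:893138-893437, minus strand: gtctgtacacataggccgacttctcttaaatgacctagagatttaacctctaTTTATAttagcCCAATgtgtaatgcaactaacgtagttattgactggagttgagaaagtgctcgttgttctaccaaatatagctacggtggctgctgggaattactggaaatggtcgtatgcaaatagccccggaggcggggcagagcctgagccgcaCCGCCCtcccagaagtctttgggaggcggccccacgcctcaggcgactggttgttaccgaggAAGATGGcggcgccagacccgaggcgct
MED23 carried 1 GC box, MED12L 1 CCAAT box, and MED11 a YY1 match upstream and an ETS match at its start. MED16 carried a TATA match, a CCAAT box, a GC box and a YY1 match downstream of its start. The table held 30 promoters of 25 members, some with several starts. Of these, 8 held the ETS motif, searched as CCGGAAG (26.7%, against 10.3% of 35116 promoters of the same length). They belong to MED7, MED11, MED15, MED17, MED18, MED29 and MED31. The core of the YY1 motif, searched as AAGATGG, was in 6 (20.0% against 5.84%), those of MED1, MED11, MED16, MED18, MED25 and MED29. The GC box, GGGCGG, was in 60.0% of member promoters against 45.0% of all. The core of the NRF1 motif, searched as GCATGCG, was in 10.0% against 3.91%. The CCAAT box, named by its letters, was in 36.7% against 34.6%, and the TATA box, searched as TATAAA, was in 6.67% against 11.5%. No matched motifs overlapped in the 4 promoters shown. These matches describe letters in the window and say nothing of binding in these cells.

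The zero point of these ratios depends on the scaling, whereas the order of the members does not. The members' median was -0.47 with TMM, -0.18 with total-count scaling and -0.08 with upper quartile factors, against all-gene medians of -0.19, 0.11 and 0.21. The members' median thus stood 0.28, 0.29 and 0.29 below that of all genes. Relative to the protein-coding genes alone, whose TMM median was -0.31, it stood 0.16, 0.17 and 0.17 lower. Members with a positive ratio numbered 10, 12 and 13 under the same scalings. Under total counts or upper quartile factors MED18 and MED9 did not reach 2-fold, which left 2 lower members (background 16.3% and 14.2%) and the same 2 higher members, MED23 and MED12L (background 22.5% and 25.1%). In either direction the backgrounds were 38.8% and 39.3%.

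The 7 kinase module genes had a median ratio of 0.22, against -0.60 for the other 26 subunits. MED13, which tethers the module to the rest of Mediator and is degraded through the ubiquitin ligase subunit FBXW7, had 7385 counts in the LINC00472 library, against 13525 in the control, or 30.0 against 22.7 FPKM, with a ratio of 0.22 (0.18 to 0.26). Its paralog MED13L had 5566 counts with LINC00472 against 9257 in the control, 25.2 against 17.3 FPKM, and a ratio of 0.36 (0.31 to 0.40). Both paralogs thus had more FPKM in the LINC00472 library, and neither reached 2-fold. MED12, the activating partner of the kinase, had 790 counts with LINC00472 against 1179 in the control, 4.82 against 2.97 FPKM, and a ratio of 0.51 (0.38 to 0.64).

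MED12L, the paralog of MED12, had the highest ratio of the 33 and was also the least abundant. It had 117 counts in the LINC00472 library against 64 in the control, or 0.474 against 0.108 FPKM, a 3.86-fold higher scaled level (log2 ratio 1.95, interval 1.51 to 2.42). The FPKM of MED12 was 10.2 times that of MED12L in the LINC00472 library and 27.6 times in the control. MED12L thus ranked 33 of 33 by FPKM in both libraries. MED12L shares exon sequence on the opposite strand with IGSF10 in GENCODE 29, which had 0 counts in both libraries.

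Neither kinase was called. CDK8, the catalytic subunit, had 767 counts with LINC00472 against 1691 in the control, 10.6 against 9.64 FPKM, and a ratio of -0.05, with an interval (-0.18 to 0.07) that includes equality. Scaled by total counts the ratio of CDK8 was 0.24, and scaled by upper quartiles 0.34, whereas its adjusted ratio was -0.43 (-0.56 to -0.31). CDK19, its alternative in the module, had 710 counts with LINC00472 against 1301 in the control, 4.83 against 3.68 FPKM, and a ratio of 0.22 (0.08 to 0.35). CCNC, which encodes cyclin C, was the lowest of the 7 genes, with 1765 counts with LINC00472 against 5430 in the control, 32.8 against 41.5 FPKM, and a ratio of -0.53 (-0.61 to -0.45). The ratio of CCNC stood 0.48 below that of CDK8 (interval of the difference -0.63 to -0.33). With the ratios adjusted for transcript properties described below, CCNC had -0.65 and its difference from CDK8 was -0.21.

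A comparison within each paralog pair does not depend on the scaling. MED12L made up 8.95% of the summed FPKM of MED12L and MED12 in the LINC00472 library, against 3.50% in the control. CDK19 made up 31.4% and 27.7% of its pair with CDK8, and MED13L 45.7% and 43.3% of its pair with MED13. In counts, the log2 ratio of MED12L exceeded that of MED12 by 1.44 (0.98 to 1.93), that of CDK19 exceeded that of CDK8 by 0.27 (0.08 to 0.45), and that of MED13L exceeded that of MED13 by 0.14 (0.08 to 0.20). The L-named gene or CDK19 held a larger share of its pair in the LINC00472 library than in the control in all 3 pairs, and the shift was wide for MED12L and small for the other pairs. GENCODE 29 gives that gene the longer transcript in each pair, and with the ratios adjusted for transcript properties described below the differences were 0.56, 0.03 and -0.12. The deposited counts and FPKM of the control imply the opposite order for MED13L (9733 nt) and MED13 (10861 nt). Adjusted with such lengths, MED13L had a ratio of -0.49 and MED13 -0.55.

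**Figure D2:**
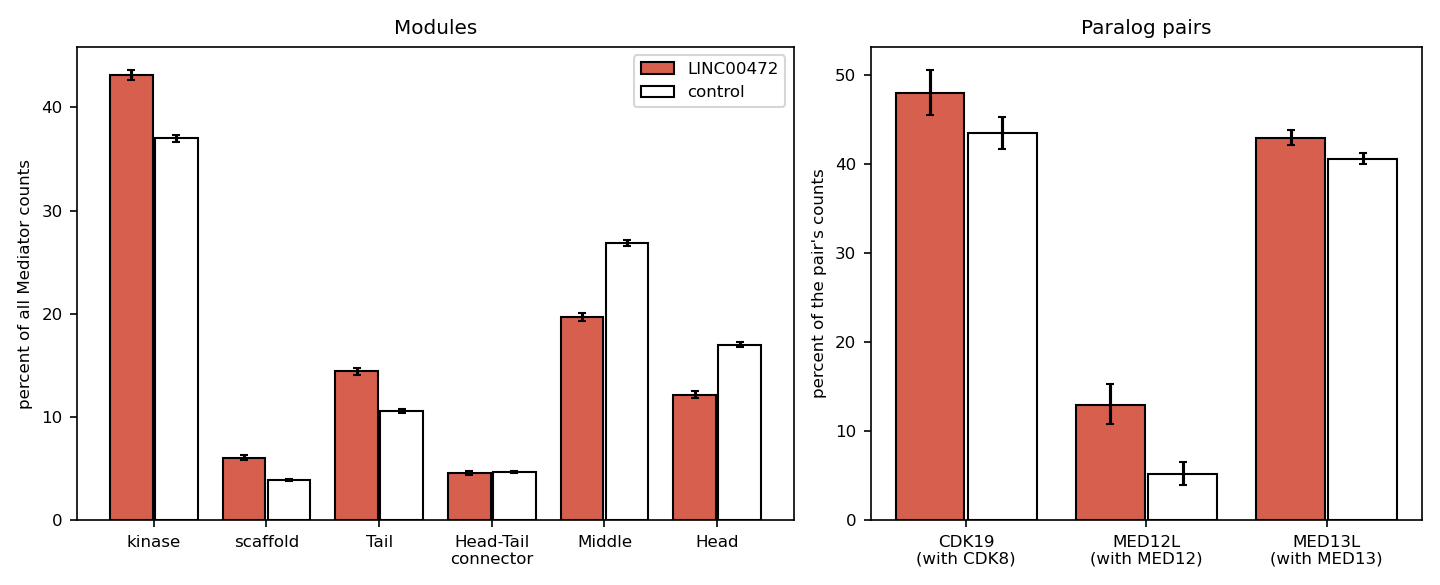
Left, percent of all Mediator counts held by each module, and right, percent of a paralog pair's counts held by the gene named on the axis; red bars are the LINC00472 library, white bars the control, and error bars exact 95% binomial intervals. The kinase module held 43.2% in the LINC00472 library against 37.0% in the control, and the Middle 19.6% against 26.9%. By summed FPKM, which is not drawn, the kinase module held 25.2% against 21.3% and the Middle 29.6% against 35.3%.

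MED14, the backbone on which Head, Middle and Tail assemble, had 2394 counts in the LINC00472 library, against 3400 in the control, 15.05 against 8.83 FPKM, and a ratio of 0.58 (0.51 to 0.66). Its place among the 33 by FPKM was 9 in the LINC00472 library, against 24 in the control. Adjusted for transcript properties, the ratio of MED14 was 0.09 (0.02 to 0.17). MED17, the central Head subunit, had 898 counts with LINC00472 against 3182 in the control, 10.9 against 16.0 FPKM, and a ratio of -0.74 (-0.84 to -0.63). It shares 2156 nt of exon with the protein-coding locus AP001273.2 on the same strand and 88 nt with TAF1D, which had 9111 counts with LINC00472 against 7033 in the control. The ratios of MED14 and MED17 differed by 1.32 (1.19 to 1.45), with MED14 above, a difference between 2 subunits of the same complex that no scaling changes.

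The Tail held both a higher and a lower call. MED23, a Tail subunit known as a target of the activators ELK1 and adenoviral E1A, had more counts in the LINC00472 library (3649) than in the deeper control library (3423). Its FPKM was 30.3 against 11.6, and its scaled level was 2.27-fold higher (log2 ratio 1.18, interval 1.11 to 1.25). It took 7.03% of the summed Mediator FPKM in the LINC00472 library against 2.53% in the control, and its rank among the 33 was 3 against 18. MED16, which binds the antioxidant factor NRF2, was 2.66-fold lower, with 154 counts in the LINC00472 library against 873 in the control, 2.23 against 5.25 FPKM, and a log2 ratio of -1.41 (-1.67 to -1.16). MED24, which forms a subassembly with MED23 and MED16, had 994 counts with LINC00472 against 2929 in the control and a ratio of -0.47 (-0.57 to -0.37). The ratio of MED23 stood 2.59 above that of MED16 (2.34 to 2.86) and 1.65 above that of MED24 (1.53 to 1.78), so the 3 neighbours in the complex had different ratios. MED15, a binding partner of SREBP and SMAD proteins, had 640 counts with LINC00472 against 1315 in the control and a ratio of 0.05, whose interval (-0.09 to 0.19) includes equality. Its pseudogene MED15P9 had 73 counts in each library, so the assignment of reads they share is uncertain. MED25, contacted by the viral activator VP16 and by ETS factors, had 265 counts with LINC00472 against 746 in the control and a ratio of -0.40 (-0.61 to -0.20). MED25 shares 1438 nt of exon with the antisense gene PTOV1-AS1 on the opposite strand. PTOV1-AS1 had 27 counts with LINC00472 against 30 in the control (log2 ratio 0.92, interval 0.13 to 1.74).

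In the Head, 2 of 7 genes were lower, where 23.8% of all genes were, and none was higher. The Head median was -0.65, and 1 gene (MED11) was lower with total counts, upper quartile factors or adjusted ratios. MED11, a small subunit that pairs with MED22, was the lowest of all 33, with 44 counts in the LINC00472 library against 417 in the control. Its FPKM was 1.91 against 8.35, and its scaled level 4.43-fold lower (log2 ratio -2.15, interval -2.64 to -1.70). Its partner MED22 had 781 counts with LINC00472 against 2600 in the control and a ratio of -0.65 (-0.76 to -0.53), which is well above that of MED11. MED11 shares 460 nt of its exons with the antisense gene AC091153.4 on the opposite strand, whose reads were not examined. It also shares 85 nt with CXCL16, which had 0 counts in the LINC00472 library, against 21 in the control. MED18, which forms the movable jaw of the Head with MED20 and MED8, was 2.18-fold lower (269 counts with LINC00472 against 1250 in the control; log2 ratio -1.13, interval -1.32 to -0.94). MED20 had 593 counts with LINC00472 against 1933 in the control and a ratio of -0.62, and MED8 had 988 counts with LINC00472 against 3177 in the control and a ratio of -0.60. MED6, one of the most conserved subunits, was the only Head gene with a positive ratio under TMM, at 1237 counts with LINC00472 against 2343 in the control, 21.98 against 17.3 FPKM, and 0.17 (0.07 to 0.27).

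The Middle had the narrowest range among the groups of several subunits, with all 9 ratios between -1.08 and -0.23 and a median of -0.60. Scaled by total counts MED31 had 0.06, and scaled by upper quartiles MED31 had 0.16 and MED4 0.06. MED9, which pairs with MED4, was lower (254 counts with LINC00472 against 1147 in the control; log2 ratio -1.08, interval -1.29 to -0.89). MED19, at the edge of the Middle, had 238 counts with LINC00472 against 934 in the control and -0.88 (-1.09 to -0.68). MED26, which recruits the super elongation complex, was among the least abundant subunits at 90 counts with LINC00472 against 331 in the control, 1.197 against 1.82 FPKM, with a ratio of -0.79 (-1.14 to -0.45). It shares 1448 nt of exon with the protein-coding locus AC008764.1. MED1, the docking subunit of nuclear hormone receptors, had 1850 counts with LINC00472 against 5967 in the control, 9.66 against 12.9 FPKM, and a ratio of -0.60 (-0.68 to -0.52). MED21, which forms the hinge of the Middle with MED7, was the most abundant subunit in both libraries at 59.6 against 69.9 FPKM, with 3796 counts with LINC00472 against 10773 in the control and a ratio of -0.42 (-0.47 to -0.36). Its partner MED7 had 274 counts with LINC00472 against 830 in the control and -0.51 (-0.71 to -0.31), so the hinge partners had overlapping intervals. MED10, near the hinge, had 357 counts with LINC00472 against 1214 in the control, a ratio of -0.68 (-0.85 to -0.50). MED4, the partner of MED9, had 570 counts with LINC00472 against 1519 in the control, a ratio of -0.32 (-0.47 to -0.18). MED31, a small conserved subunit, had 350 counts with LINC00472 against 874 in the control, a ratio of -0.23 (-0.41 to -0.05). The Middle values thus ran from 2-fold lower in MED9 to near equality in MED31. MED31 shares 1227 nt of exon on the opposite strand with TXNDC17, which had 541 counts in the LINC00472 library against 3005 in the control (log2 ratio -1.38).

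Of the 4 connector genes none was called. MED27 had 258 counts with LINC00472 against 853 in the control, a ratio of -0.64 (-0.84 to -0.43). MED29 had 309 counts with LINC00472 against 1025 in the control, a ratio of -0.64 (-0.83 to -0.46). MED30 had 236 counts with LINC00472 against 697 in the control, a ratio of -0.47 (-0.69 to -0.26). These 3 had overlapping intervals, all below 0 with TMM. MED28 differed from them, with 1013 counts with LINC00472 against 1510 in the control, 17.99 against 11.1 FPKM, and a ratio of 0.51 (0.40 to 0.63). MED28 shares 3520 nt of exon with FAM184B on the opposite strand, which had 0 counts in both libraries.

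**Figure D3:**
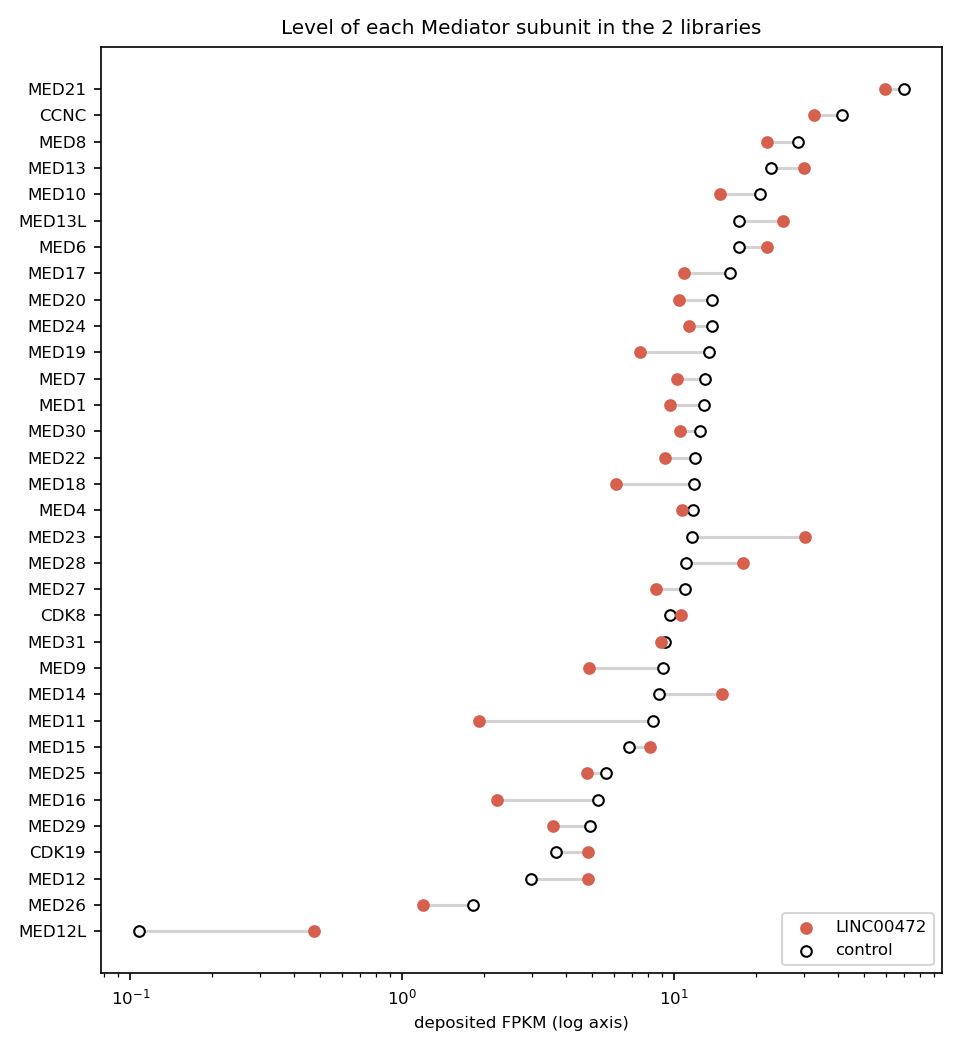
Deposited FPKM (x axis, log scale) of each subunit in the LINC00472 library (red) and the control (white), joined by a line and ordered by the control level. MED21 heads both libraries at 59.6 against 69.9 FPKM and MED12L ends both at 0.474 and 0.108, and wide gaps show MED12L and MED23 above and MED11 below the control.

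Levels spanned a wide range within the complex. The median subunit had 10.3 FPKM in the LINC00472 library, against 11.8 in the control, and 19 and 21 of the 33 lay between 4 and 15 FPKM. The deposited FPKM was above the control for 11 subunits and below it for 22. Across the 33 subunits, which share both libraries, log2 FPKM in the LINC00472 and control libraries had a Pearson correlation of 0.87 and a Spearman correlation of 0.81. By count share, the kinase module held 43.2% of Mediator counts in the LINC00472 library (42.7 to 43.7) and 37.0% in the control (36.7 to 37.3). The Head held 12.1% (11.8 to 12.5) against 17.0% (16.7 to 17.2), and the Middle 19.6% (19.3 to 20.0) against 26.9% (26.6 to 27.2). The Tail held 14.4% (14.1 to 14.7) against 10.6% (10.4 to 10.8), and MED14 6.05% (5.81 to 6.29) against 3.88% (3.75 to 4.01). Of the 5 Tail genes, 3 had negative ratios and the Tail median was -0.40. The Tail gene MED23 had 3649 counts with LINC00472 against 3423 in the control, so the larger Tail share does not describe the module as a whole. The connector genes held 4.59% and 4.66%, with overlapping intervals. By share of summed Mediator FPKM, the level per transcript length, the Middle was the largest group in both libraries, at 29.6% with LINC00472 against 35.3% in the control. On that scale the kinase module held 25.2% against 21.3%, and the Head 19.1% against 23.5%. The Tail held 13.2% against 9.38%, MED14 3.49% against 1.92%, and the connector genes 9.42% against 8.58%. Within the Tail, MED23 alone held 7.03% against 2.53%.

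Longer transcripts had higher ratios among the subunits. Over the 33 members, the ratio had a Spearman correlation of 0.58 (Pearson 0.68) with log2 transcript length, and -0.48 (-0.40) with GC content. Over 12377 protein-coding genes at the minimum, the corresponding Spearman values were 0.37 and -0.21. The 11 members with the longest transcripts (3867 to 14615 nt) had a median ratio of 0.36, and 8 of them were above 0. The 11 shortest (833 to 2022 nt) had a median of -0.60 and 1 above 0. The kinase genes MED13, MED13L, MED12, MED12L and CDK19 are all in the long group, as are MED14 and MED23, whereas MED11 has the shortest transcript of all at 833 nt. GENCODE 29 gives MED28 a transcript of 10868 nt, while its deposited counts and FPKM in the control imply 2485 nt. With lengths implied by the deposited values, the Spearman correlation over members was 0.53.

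**Figure D4:**
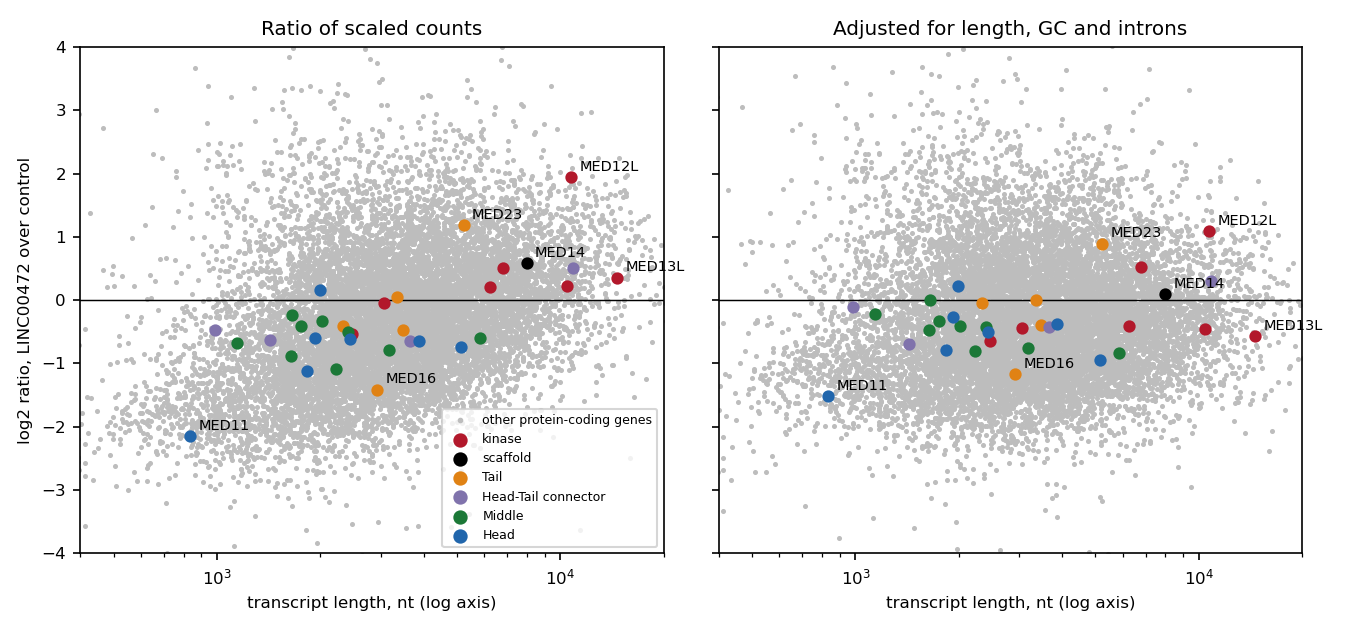
Log2 ratio (y axis) against transcript length in nt (x axis, log scale) for the Mediator subunits, coloured by module, over other protein-coding genes in grey, as ratios of scaled counts (left) and after adjustment for length, GC and intron size (right). The adjusted kinase subunits no longer lie above the rest, with a median of -0.43 against -0.40 for the other 26 subunits; 98 grey points on the left and 97 on the right lie outside the axes.

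When ratios were adjusted for these transcript properties (length, GC content, total intron length) over 13616 genes, the kinase module no longer had the higher median. The kinase genes then had a median of -0.43 and the other 26 subunits -0.40, and the whole complex stood at -0.41, beside -0.32 for all genes and -0.39 for protein-coding genes. After adjustment 1 member was higher, against a background of 12.9%, and 2 were lower, against 23.9%, with 36.8% of all genes called. Using lengths implied by the deposited values gave the same counts, against 12.9%, 23.2% and 36.1%. Among protein-coding genes alone, without adjustment, 11.4% were higher, 26.2% lower and 37.6% either. MED12L remained higher (adjusted ratio 1.09), and MED11 and MED16 remained lower (-1.51 and -1.17). MED23 fell short of 2-fold at 0.90, and MED18 and MED9 reached -0.79 and -0.80. MED13 (-0.46), MED13L (-0.57) and CDK19 (-0.40) had negative adjusted ratios, while MED12 (0.53) and MED28 (0.30) stayed positive. The adjusted ratio of MED14 still exceeded that of MED17 by 1.05, and that of MED23 exceeded that of MED16 by 2.06.

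The machinery that Mediator works with was described from 6 lists of its partners, with the same call rule. Over all genes at the minimum 23.8% were lower and 16.3% higher, and each count is read against these shares. Of 12 RNA polymerase II subunits, 9 were lower and none higher, with a median of -1.67. The small subunits POLR2L (316 counts with LINC00472 against 3912 in the control; log2 ratio -2.54) and POLR2I (140 against 1731; -2.54) were the lowest. The largest subunits, which form the catalytic centre, POLR2A (1616 counts with LINC00472 against 4592 in the control; -0.42) and POLR2B (8599 and 24064; -0.40) had the highest ratios, close to the median of Mediator itself. With adjusted ratios, 9 of the 11 polymerase subunits with annotation were still lower.

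General transcription factors held 4 lower and no higher genes of 17 (median -0.89), a share near the 23.8% of all genes. GTF2F1, the large subunit of TFIIF, was 4.97-fold lower (517 counts with LINC00472 against 5472 in the control; log2 ratio -2.31) and GTF2A2, the small subunit of TFIIA, 2.25-fold lower (351 against 1679; -1.17). The TFIIH genes GTF2H4 and ERCC3 had ratios of 0.25 and -0.02. Of 16 genes for TBP and its associated factors, 5 were lower (median -0.61), with the same background of 23.8%. TAF9B (124 counts with LINC00472 against 1145 in the control; -2.11) and TAF13 (457 against 3721; -1.94) were the lowest, while TAF1, the large scaffold of TFIID, and TBP had ratios of 0.63 and 0.40.

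Of 21 pausing and elongation genes, 6 were lower (median -0.45), again near the 23.8% of all genes. The P-TEFb inhibitor HEXIM1 was 4.15-fold lower (431 counts with LINC00472 against 3806 in the control; log2 ratio -2.05) and the DSIF subunit SUPT4H1 3.91-fold lower (389 against 3236; -1.97), while the P-TEFb cyclin CCNT2 and AFF1, a scaffold of the super elongation complex, had ratios of 0.75 and 0.59. Of the 7 cohesin and loader genes, which cooperate with Mediator at enhancers, none was called. The loader NIPBL stood at 0.98 (8632 counts with LINC00472 against 9307 in the control), just under 2-fold, and MAU2, its partner, at -0.41, whereas STAG2 and SMC3 stood at -0.63 and -0.60. Among 25 factors known to bind Mediator subunits, 23 passed the minimum and 5 of these were lower (median -0.10), also near 23.8%. ELK1, a partner of MED23, was 3.27-fold lower (190 counts with LINC00472 against 1324 in the control; log2 ratio -1.71), and HSF1 2.89-fold lower (655 against 4024; -1.53). PPARGC1A, a coactivator that binds MED1, and SMAD3 had the highest ratios, 0.97 and 0.39. ESR1 and HNF4A did not pass the minimum. These counts also depend on the scaling. With upper quartile factors, where 14.2% of all genes were lower and 25.1% higher, lower genes numbered 8 of 12 polymerase subunits, 1 of 17 general transcription factors, 3 of 16 in the TBP list, 2 of 21 in the elongation list and 3 of 23 in the Mediator-binding list. The TBP, elongation, cohesin and Mediator-binding lists then held 1 higher gene each. With adjusted ratios, where 23.9% of all genes were lower, lower genes numbered 8 of 17, 4 of 16, 3 of 21, 2 of 7 and 6 of 23 in the general factor, TBP, elongation, cohesin and Mediator-binding lists.

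**Figure D5:**
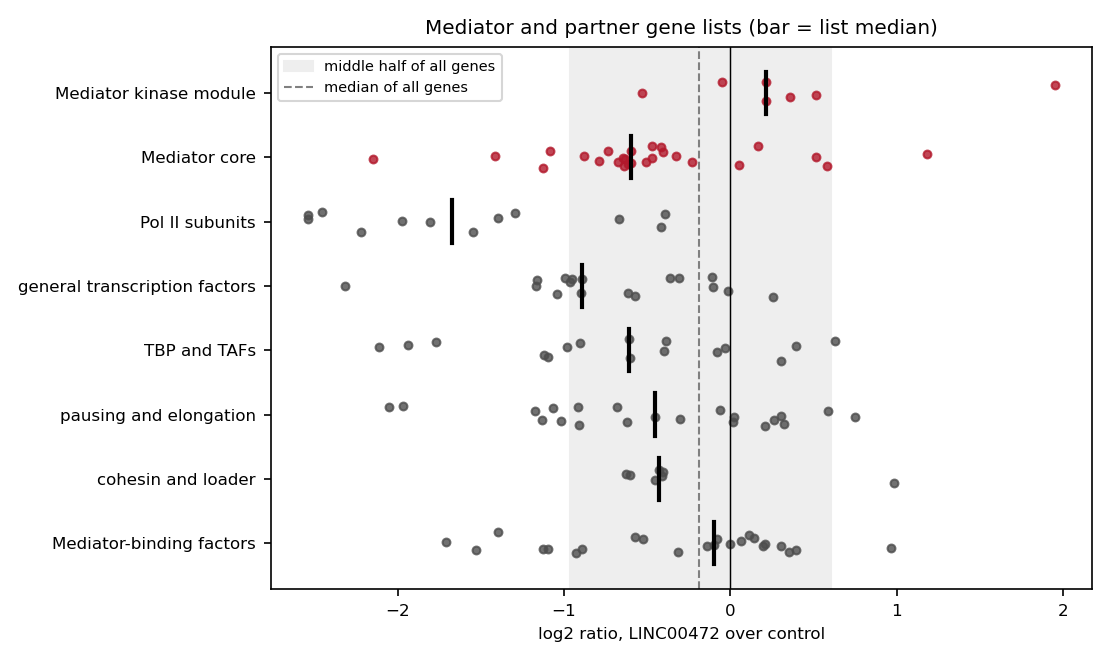
Log2 ratio (x axis, LINC00472 over control) of each gene of the Mediator kinase module, of the other 26 Mediator subunits (core) and of the 6 partner lists, with a bar at each list's median, the grey band at the interquartile range of all genes (-0.96 to 0.60) and a dashed line at their median (-0.19). Polymerase II subunits lie lowest with a median of -1.67, and the kinase module has the highest median at 0.22.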

How the data were processed

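Total RNA of NCI-H838 cells was sequenced, with 1 library in each group, named by the sample titles. The deposited tables hold read counts per gene, which are whole numbers without normalization (counted or estimated from coverage is not stated), and the authors' FPKM, which divides fragments by transcript length and library size, both per the file headers. The series table and the single-library tables held identical counts. The submitters' processing notes name HISAT2 2.1.0 and StringTie 1.3.4b beside Trimmomatic, bcl2fastq 2.20.0 and hg19, without roles. How reads were assigned to genes, and whether strand was used, is not given in the sources used here, so reads of overlapping genes cannot be told apart. In GENCODE 29, 18 of the 33 members share exon sequence with another gene and 7 with another protein-coding gene.

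From the counts, log2 ratios were computed in Python with a prior count of 0.5. The TMM and upper quartile factors came from edgeR 4.0.16 (R 4.3.3). TMM factors were 1.11 for LINC00472 and 0.905 for the control. Intervals are exact conditional (Clopper-Pearson) 95% intervals of 2 counts, or of the odds ratio of 4 counts for differences between genes, and cover counting error only. Transcript properties came from GENCODE 29, matched by RefSeq accession for 97.2% of genes at the minimum and all 33 members. Adjusted ratios subtract what a spline model of these properties (5 knots, degree 3; scikit-learn 1.9.0; R squared 0.114) predicts, and add back the median. Alternatives were total counts, upper quartile factors, size factors from DESeq2 1.42.0, a larger prior count (5), FPKM with 0.5 added, minimums of 0.1 and 5 CPM or none, a 1.5-fold rule, the adjusted ratios, a thinned control and the single-library tables. The calculation was tested on simulated data.

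The members, modules and partner lists were chosen with earlier results of these data known. Every member was to be accounted for, and of each partner list the 2 highest and 2 lowest genes were named. Motifs were shortened to at most 7 letters after longer forms of the YY1 and NRF1 motifs had been counted. Python 3.11.15 was used with scipy 1.17.1, pandas 2.3.3, numpy 2.4.6 and matplotlib 3.10.9.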

Additional observations from a re-analysis of the deposited data

How the results depend on the processing

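No paired analysis was possible because each group held 1 library, and no replicate could be left out. The Mediator counts of 2 higher and 4 lower members were unchanged with DESeq2 size factors, a prior count of 5, minimums of 0.1 CPM or none, a thinned control and the single-library tables. Higher members numbered 1 with FPKM plus 0.5 (MED23), at a minimum of 5 CPM (MED23, since MED12L then had no value), with adjusted ratios, also with lengths implied by the deposited values (MED12L), and among the 26 members sharing no exon with another protein-coding gene (MED23). Those last 2 alternatives were chosen after seeing the data. Lower members numbered 2 (MED11 and MED16) with total counts, upper quartile factors, FPKM and both kinds of adjusted ratio, and 14 at 1.5-fold. Among the 26 members sharing no exon with another protein-coding gene, 3 were lower (MED16, MED18 and MED9), since MED11 shares exon with CXCL16 and was left out. Over all genes, whether or not they share exon, 16.3% were higher and 23.8% lower. No share is given for all genes without shared exons. The members' median moved to -0.18 with total counts, -0.085 with upper quartile factors and -0.27 with FPKM. For all genes, 2288 were higher and 3341 lower. Higher genes numbered 3531 with upper quartile factors, 3576 at 0.1 CPM, 3657 with no minimum, 1347 at 5 CPM and 3558 at 1.5-fold, and lower genes 1993 with upper quartile factors and 5118 at 1.5-fold. The all-gene median moved to 0.11 with total counts, 0.21 with upper quartile factors, -0.0083 with FPKM and -0.0445 at 0.1 CPM. By counts instead of FPKM, CDK19 made up 48.1% of its pair in the LINC00472 library, against 43.5% in the control, MED12L 12.9% and 5.15%, and MED13L 43.0% and 40.6%, with the same direction in each pair. The cause of these differences was not tested. No called member changed sign under any of these settings. Depth limits MED12L and MED11 most, with 117 against 64 and 44 against 417 counts.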
